A study of Mus musculus with 6 samples.

Results

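Olfactory sensory neurons (OSNs) carry their olfactory receptor (OR) protein through the endoplasmic reticulum (ER) to the cilia, and the arrival of that protein in the ER is read out by a stress pathway. The 10 genes described here belong to these processes and were taken by symbol, not by their values. They are Rtp1, Rtp2 and Reep1 of receptor trafficking, Atf5 of the feedback of OR expression, and Eif2ak3, Atf4, Ddit3, Trib3, Xbp1 and Hspa5 of the unfolded protein response. All 10 were among the 24564 gene symbols counted. They were followed along the neuron lineage, by the number of OR transcripts per mature OSN, and between genotypes, in 6 single-cell libraries of the mouse main olfactory epithelium.

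The swap allele holds the coding sequence of HP1β (Cbx1) followed by a stop cassette and that of HP1α (Cbx5), so that Cre recombination puts HP1α in the place of HP1β under the Cbx1 promoter. The 2 swap libraries are labelled Cbx*/* with a Cre driver. Control replicate 1 is labelled WT with the same driver and control replicate 2 Cbx*/* with no driver, whereas the methods describe floxed Cbx controls, so the 2 controls are not of 1 genotype by their labels. In the other experiment the gg8-tTA driver, which is active in OSNs, was present in both mice. The tetOP2 mouse (gg8-tTA; tetOP2iresGFP) also carried a tetracycline-responsive allele of the receptor Olfr17, known as P2, with GFP, and the gg8tTA mouse had the driver alone. There was 1 library for each of these genotypes. The labels give no age, and do not say how many animals went into a library.

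Membrane proteins that fold slowly in the ER engage the sensor PERK, encoded by Eif2ak3. PERK phosphorylates the initiation factor eIF2α, which slows translation in general and favors translation of ATF4 and, in OSNs, of ATF5. In OSNs this response is known to follow the first OR protein and to help fix the choice of that OR, and it is relieved as the neuron matures. The proteins RTP1 and RTP2 accompany ORs to the plasma membrane, and REEP1 was found with them as a further accessory protein. The other branches of the response act through the splicing of Xbp1 RNA, which raises genes of the secretory pathway, and through ATF6, which raises chaperones such as BiP, the product of Hspa5. Ddit3 encodes CHOP and Trib3 a pseudokinase that restrains ATF4 and CHOP, and both are known targets of ATF4. RNA levels are read here, which show neither the phosphorylation of eIF2α nor the translation of Atf4 and Atf5 nor the splicing of Xbp1.

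The 250 bases before the annotated start of transcription were read for 9 of the 10 genes, in 10 windows because Atf5 has 2 starts, from RefSeq on GRCm38.p6. Rtp1 was not matched. The sequences of Hspa5 and Ddit3 are shown, since they are the standard readouts of the ATF6 and the ATF4 branch. Capitals mark CCAAT, or ATTGG where CCAAT lies on the minus strand, and in Hspa5 also CCACG of the ER stress element.
Hspa5, chr2:34771840-34772089, plus strand: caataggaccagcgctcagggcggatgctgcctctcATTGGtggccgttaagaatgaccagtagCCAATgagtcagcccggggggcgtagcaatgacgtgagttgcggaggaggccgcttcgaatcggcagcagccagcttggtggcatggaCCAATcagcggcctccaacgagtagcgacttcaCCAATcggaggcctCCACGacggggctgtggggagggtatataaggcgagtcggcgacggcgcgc
Ddit3, chr10:127290543-127290792, plus strand: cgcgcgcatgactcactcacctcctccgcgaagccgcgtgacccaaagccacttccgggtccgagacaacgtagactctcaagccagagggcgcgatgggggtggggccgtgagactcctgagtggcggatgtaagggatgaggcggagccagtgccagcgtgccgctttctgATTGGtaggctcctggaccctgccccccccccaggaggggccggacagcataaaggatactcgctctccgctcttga
The ER stress element, CCAAT and CCACG with 9 bases of any kind between them, searched on both strands, lay 65 to 47 bases before the start of Hspa5 and in no other window of these genes. It was found in 37 of 32851 windows of this length over all genes (0.113%). CCAAT, which the ER stress element contains, was found on either strand in 33.9% of all windows and in 5 of the 10 windows of these genes, namely those of Hspa5, Ddit3, Eif2ak3, Atf4 and 1 of Atf5. No window of these genes held the letters TGACGTGG (0.563% of all windows), TGATGNAA (3.45%), TGACGTCA (1.55%) or TCCC and GGGA with 2 bases between them (0.779%), each searched on both strands.

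The files held 2563 to 7703 cell barcodes and 32005196 to 63277934 UMIs (unique molecular identifiers, the count of captured transcripts) per library, and 24830 cells were kept. No pair of libraries shared more than 20 barcodes, and no pair, taken separately, more than 0.507% of the smaller library. The labels call the cells OSN and the series describes sorted cells, but the libraries held basal, sustentacular, respiratory, stromal and blood cells as well. Mature OSNs were gated at 10 or more Omp UMIs, with fewer UMIs of Gap43 than of Omp, and 5611 cells passed, 683 to 1341 per library. In these cells Cbx1 was at 1.84 and 2.90 CPM (UMIs of the gene per 1000000 UMIs of the same cells) in the swap libraries and at 81.1 and 139.7 CPM in the controls. Cbx5 was at 88.0 and 102.6 CPM against 20.6 and 45.8 CPM. Swap replicate 1, tetOP2 and gg8tTA had Xist and no Ddx3y UMI, whereas the other libraries had Ddx3y, so the swap libraries were not of the same sex. Sums over the cells of a library are compared between libraries throughout, since cells of 1 library are not replicates.

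Rtp1 and Rtp2 RNA was low in precursors and rose at each of the 2 later steps of the lineage, while Reep1 rose mainly at the last step. The stages were named by markers in the swap and control libraries, globose basal cells (GBC, 323 cells), immediate neuronal precursors (INP, 540 cells), late immature OSNs (2624 cells) and mature OSNs (2349 cells). No cluster could be named early immature. The 10 genes took no part in the clustering. Each step was tested with the library as a block.

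Rtp1 was at 3.40 to 14 CPM in GBC and 11.3 to 22.1 CPM in INP. In late immature OSNs it stood at 151 and 162 CPM in the swap and at 140 and 167 CPM in the control libraries. In mature OSNs the values were 363 and 425 CPM in swap and 384 and 418 CPM in control. The ranges of the 4 libraries at the last 3 stages were therefore apart from each other. The log2 fold change was 3.01 ± 0.18 (SE, adjusted p = 1.92e-09) from INP to late immature OSNs and 1.53 ± 0.12 (adjusted p = 2.5e-08) from there to mature OSNs. Between GBC and INP it was 0.70 ± 0.30 with an adjusted p of 0.0547. Rtp2 followed closely, at 144 ± 12.2 CPM (SD, n = 4) in late immature and 359 ± 34.4 CPM in mature OSNs, with log2 fold changes of 3.21 and 1.49. Across the 16 sums of library and stage, the Pearson r of Rtp1 and Rtp2 on log2(CPM + 1) was 0.99, as a description of points that share libraries. The low precursor values have free RNA as a reference. Sustentacular cells, which do not make Omp, had 152 ± 112 CPM of Omp and 20.5 ± 11.7 CPM of Rtp1. Per 100 Omp UMIs they held 11.7 to 19.6 Rtp1 UMIs, against 9.93 to 14.2 in mature OSNs and 35.2 to 400.0 in INP.

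Reep1 had another course. It was at 10.8 to 21.3 CPM in GBC, at 0.81 to 2.82 CPM in INP and at 12.6 to 21.3 CPM in late immature OSNs. Mature OSNs held 86.0 and 124 CPM in the swap and 89.1 and 127 CPM in the control libraries. Reep1 thus fell to INP, with a log2 fold change of -3.33 ± 0.49 (adjusted p = 2.92e-05), rose again by the late immature stage (3.29 ± 0.44, adjusted p = 9.06e-06), and rose further in mature OSNs (2.90 ± 0.17, adjusted p = 1.09e-09).

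Atf5, the transcription factor whose translation follows PERK in OSNs, rose earlier than the trafficking genes. Its level was 87.4 to 184 CPM in GBC and 479 to 741 CPM in INP. Late immature OSNs held 3245 and 2100 CPM in the swap and 3323 and 2227 CPM in the control libraries. Mature OSNs held 2712 and 1964 CPM in swap and 2980 and 2182 CPM in control. The log2 fold change was 2.16 ± 0.12 (adjusted p = 1.22e-09) at the step to INP and 2.01 ± 0.11 (adjusted p = 7.38e-10) at the step to late immature OSNs. At the step to mature OSNs it was 0.03 ± 0.11 (adjusted p = 0.812), which was not called.

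**Figure D1:**
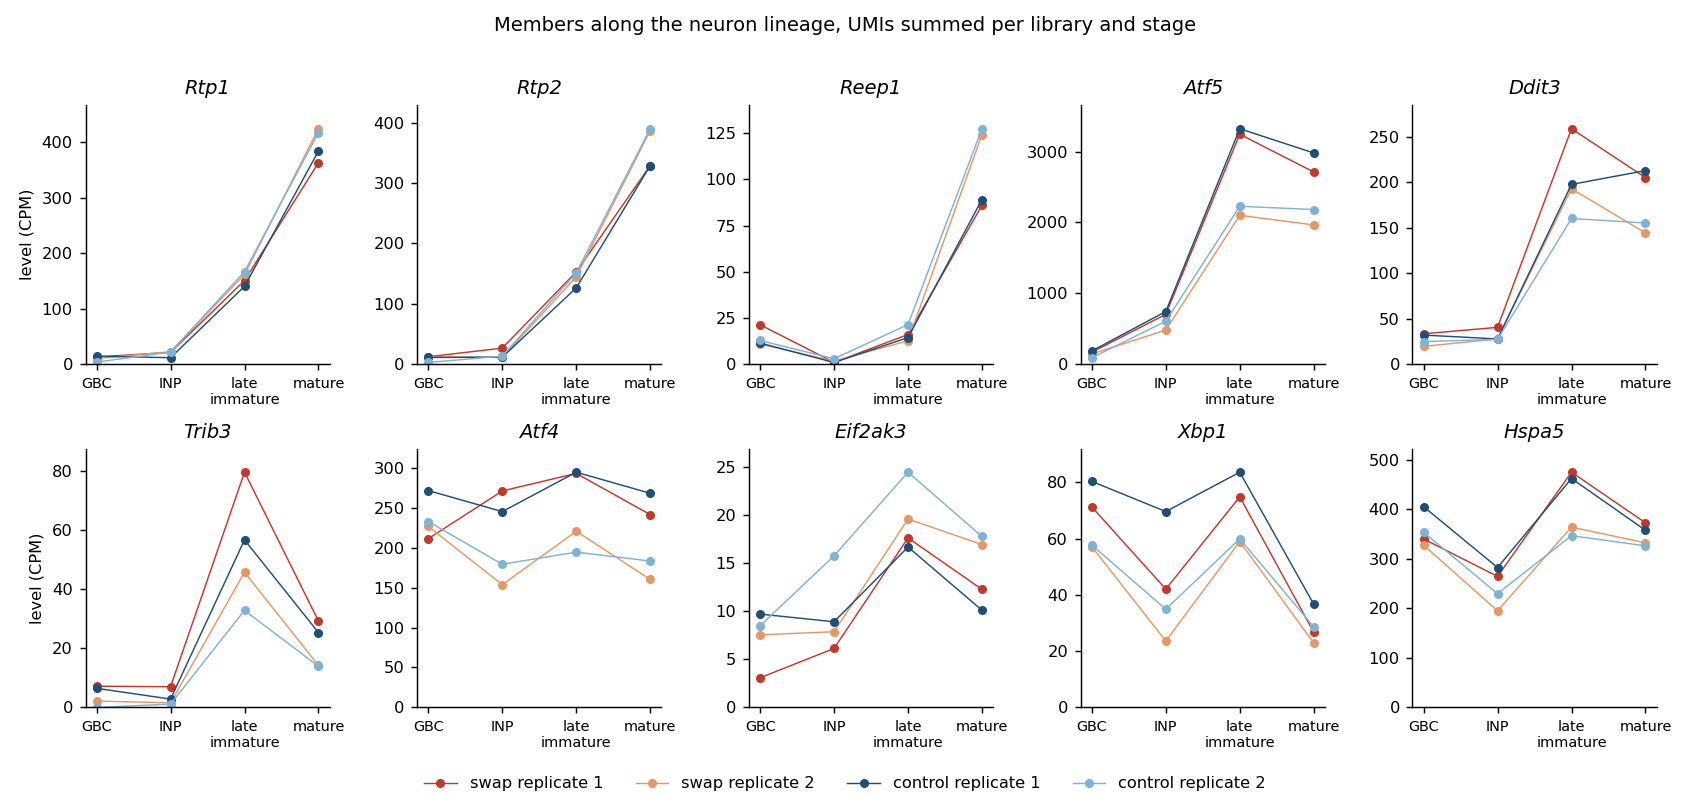
Levels in CPM (linear axes from 0, 1 axis per gene) of the 10 genes in GBC, INP, late immature and mature OSNs, with 1 line per swap or control library. Rtp1, Rtp2 and Reep1 are highest in mature OSNs in every library, while Trib3 falls from a mean of 53.8 CPM in late immature to 20.7 CPM in mature OSNs.

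Ddit3, Trib3, Hspa5, Xbp1 and Eif2ak3 were called higher from INP to late immature OSNs, and Trib3 and Xbp1 were called lower at the step after it. Ddit3 was at 19.4 to 33.3 CPM in GBC and 27.0 to 40.3 CPM in INP. In late immature OSNs it was at 259 and 193 CPM in the swap and 198 and 160 CPM in the control libraries, and in mature OSNs at 205 and 144 against 213 and 155 CPM. Ddit3 therefore rose by a log2 fold change of 2.67 ± 0.12 (adjusted p = 5.83e-11) at the step from INP and was not called at the next step (0.00 ± 0.08, adjusted p = 0.982). Trib3, the antagonist of ATF4 and CHOP, was at 1.13 to 7.01 CPM in INP. It was at 79.7 and 45.8 CPM in swap and 56.8 and 32.9 CPM in control late immature OSNs, and at 29.3 and 14.2 against 25.3 and 13.9 CPM in mature OSNs. Every library was higher in late immature than in mature OSNs. Trib3 rose by 4.13 ± 0.28 (adjusted p = 6.6e-09) and then fell by 1.20 on the log2 scale (SE 0.16, adjusted p = 8.43e-06). In GBC of control replicate 2 no Trib3 UMI was seen among 1178081, which allows up to 2.55 CPM by a limit of 3 counts.

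Among the named stages Hspa5, which encodes the chaperone BiP, was lowest in INP in every library. A finer cluster within the late immature stage, led by Tex15, had a lower mean, at 179 ± 21.4 CPM (SD, n = 4). The 2 INP clusters had means of 235 and 254 CPM. By stage Hspa5 was at 265 and 195 CPM in swap and 283 and 230 CPM in control INP, and at 475 and 364 against 463 and 347 CPM in late immature OSNs. The step from INP was a rise of 0.68 ± 0.08 on the log2 scale (adjusted p = 1.52e-06). From GBC to INP the log2 fold change was -0.52 ± 0.08 (adjusted p = 3.76e-05), smaller than the 0.58 needed for a call. Xbp1, whose product is spliced from its RNA under stress, was at 23.6 to 69.7 CPM in INP, 59.0 to 83.7 CPM in late immature and 22.9 to 36.7 CPM in mature OSNs. It rose by 0.61 ± 0.14 (adjusted p = 0.00129) and then fell by 1.08 (SE 0.12, adjusted p = 1.45e-06), the latter in every library. The earlier step from GBC to INP was called lower (-0.61 ± 0.15, adjusted p = 0.00278), but lost its call without control replicate 2 (-0.54), swap replicate 1 (-0.49) or swap replicate 2 (-0.48). The rise of Xbp1 from INP lost its call without swap replicate 1 (0.57) or swap replicate 2 (0.49). In the controls alone it was 0.39 (adjusted p = 0.0727).

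Eif2ak3, which encodes PERK, was read from few UMIs, at 6.14 to 15.8 CPM in INP and 16.7 to 24.5 CPM in late immature OSNs. It was called higher there (0.93 ± 0.24, adjusted p = 0.00297), but not in the control libraries alone (0.69, adjusted p = 0.0749). Atf4 RNA varied less than its targets. Its mean was 212 ± 54.9 CPM in INP, 250 ± 50.9 CPM in late immature and 213 ± 49.99 CPM in mature OSNs (SD, n = 4), and no step was called (adjusted p of 0.15 or more at each).

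Of the 10 genes, 1 was called higher and 2 lower from GBC to INP, where 20.9% of the 11958 genes tested were called higher and 24.8% lower. From INP to late immature OSNs 9 were called higher and none lower, against 24.9% and 22.0% of all genes, and the exception was Atf4. The median log2 fold change of the 10 genes was 2.34 there and 0.02 over all genes tested. From late immature to mature OSNs 3 were called higher (20.9% of all genes) and 2 lower (22.9%), with a median of -0.04 against -0.05 over all genes. A fold change is relative to the other genes of the same cells, and fewer transcripts per cell cannot be told apart from more of the others.

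Finer clusters placed most of the stress genes ahead of the trafficking genes. The lineage ran from INP through a cluster led by Tex15, Rcor1 and Crabp1 (530 cells), then clusters led by Gap43, Prph and Rprm (1272 cells) and by Gap43, Calb2 and Stk32a (822 cells), to a cluster led by Ctxn3, Sult1d1 and Cartpt (1738 cells) and the mature cluster. The Tex15 cluster and both Gap43 clusters make up the late immature stage, and the Ctxn3 cluster bears no stage name. The order was set by hand from precursor markers, Gap43 and Omp, and the values are a description with no test. Hspa5, Eif2ak3 and Xbp1 had their highest level in the Gap43, Prph and Rprm cluster in 4 of 4 libraries, and Atf5 and Trib3 in 3 of 4. Hspa5 was at 179 ± 21.4 CPM (SD, n = 4) in the Tex15 cluster, at 504 ± 50.4 CPM in that peak cluster and at 348 ± 21.9 CPM in mature OSNs. Trib3 went from 8.0 ± 8.43 to 69.5 ± 19.8 and 20.7 ± 7.80 CPM over the same clusters. Ddit3 was near its highest level over a longer stretch, at 231 ± 21.5, 253 ± 48.7 and 218 ± 41.3 CPM in the clusters from Gap43, Prph and Rprm to Ctxn3. These genes were thus highest before the mature stage. Rtp1 stood at 43.8 ± 17.8 CPM in the Tex15 cluster, at 128 ± 22.8, 263 ± 32.9 and 396 ± 38.7 CPM in the 3 clusters that followed, and at 398 ± 28.8 CPM in the mature cluster. Reep1 was still at 22.6 ± 2.54 CPM in the Gap43, Calb2 and Stk32a cluster, where Rtp1 had passed the midpoint of its range, and reached 73.7 ± 13.8 and 107 ± 22.2 CPM in the last 2 clusters. Atf4 had its highest level in the INP cluster led by Neurod1, Neurog1 and Scg2 in 3 of 4 libraries.

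**Figure D2:**
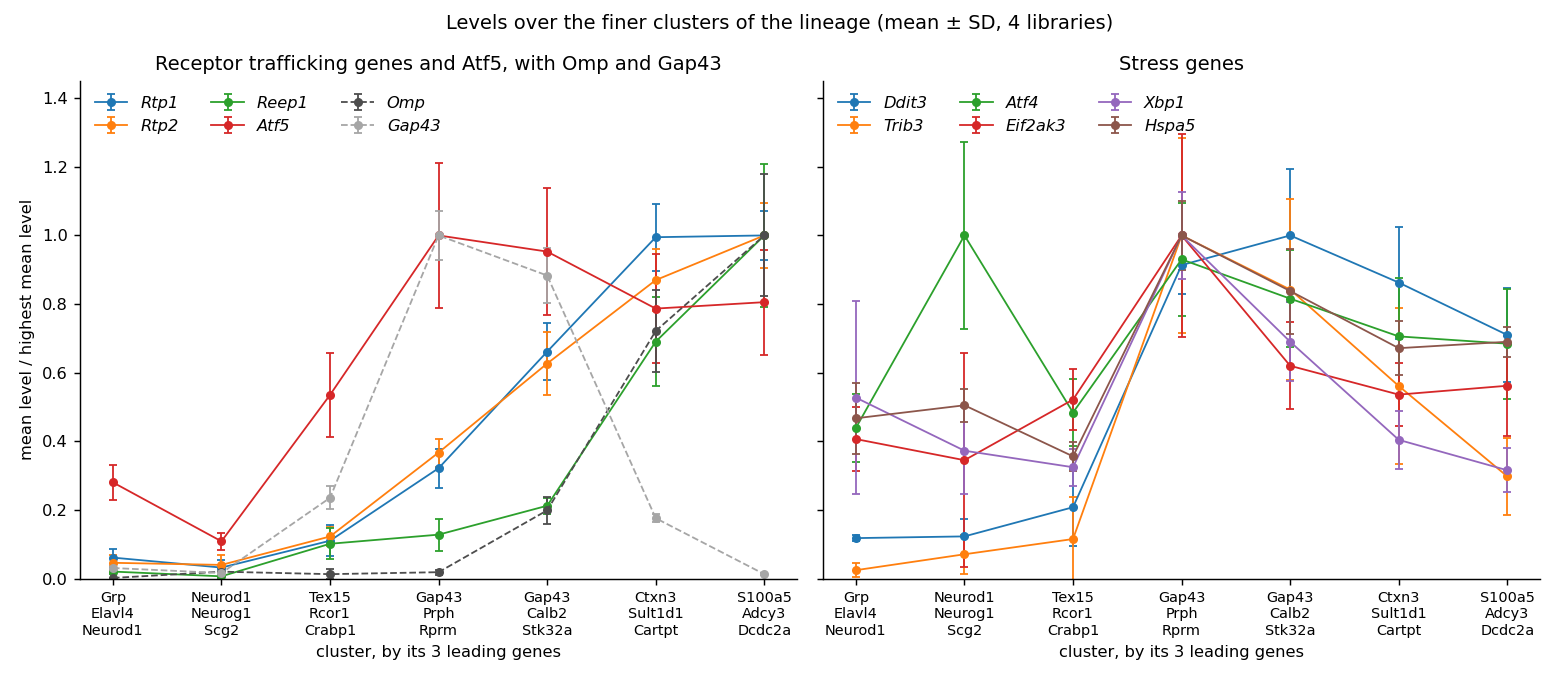
Mean level of each gene in each finer cluster of the lineage, divided by its highest mean (linear axis), with the SD of the 4 swap and control libraries; clusters are named by their 3 leading genes and run from INP on the left to mature OSNs on the right. Hspa5, Xbp1, Eif2ak3 and Trib3 peak in the cluster led by Gap43, Prph and Rprm, whereas Rtp2 and Reep1 peak in the last cluster.

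Outside the lineage the genes parted into those that are OSN genes and those used more widely. Among 16 cell types with at least 20 cells in a library, Rtp1, Rtp2 and Reep1 were highest in mature OSNs. For Rtp1 and Rtp2 every type other than late immature and mature OSNs was at 20.5 CPM or below. Reep1 was second in sustentacular cells at 43.5 ± 10.7 CPM, where 17.5 to 109 UMIs were seen per 100 Omp UMIs against 2.44 to 3.30 in mature OSNs. Atf5 was highest in late immature and mature OSNs and INP, with at most 220 CPM in the other types. Ddit3 and Trib3 were highest in erythroid cells, at 501 ± 354 and 75.7 ± 88.3 CPM, a spread that took in the late immature level. Xbp1 and Hspa5 were higher in many other types than in OSNs. Xbp1 was highest in sustentacular cells, at 259 ± 45.2 CPM, and mature OSNs stood 15th of 16 types. Hspa5 was at 1002 ± 52.3 CPM in respiratory cells and 953 ± 268 CPM in macrophages, and mature OSNs stood 14th.

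Of a list of 24 PERK and ATF4 targets, 22 were tested along the lineage, and 7 of the 24 had been among the genes used for clustering. From INP to late immature OSNs 11 were called higher and 4 lower, where 24.9% and 22.0% of all genes were, with a median log2 fold change of 0.59 against 0.02 over all genes. The largest rises were of Vldlr, a lipoprotein receptor (7.70 to 69.5 CPM, log2 fold change 3.07 ± 0.18), and Eif4ebp1, a brake on cap-dependent translation (6.46 to 44.3 CPM, 2.88 ± 0.31). Among those that fell were Shmt2 (-2.37 ± 0.16) and Phgdh (-1.32 ± 0.30), enzymes of serine and one-carbon metabolism. From late immature to mature OSNs none was called higher and 10 lower, where 20.9% and 22.9% of all genes were (median -0.55 against -0.05), led by Psat1, another enzyme of serine synthesis (-1.92 ± 0.36), and Eif4ebp1 (-1.67 ± 0.21). From GBC to INP 2 were called higher and 11 lower, where 20.9% and 24.8% of all genes were, with Cebpg, a partner of ATF4, higher (2.45 ± 0.08) and Atf3 lower (-5.35 ± 0.30).

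Of 20 ER chaperones and genes of ER-associated degradation tested, 6 were called higher and 1 lower from INP to late immature OSNs, with a median of 0.38 against 0.02. The share called higher was near the 24.9% of all genes. Dnajb9, a cochaperone of BiP, rose from 45.7 to 182 CPM (1.89 ± 0.08) and Sdf2l1 from 38.7 to 82.7 CPM (0.98 ± 0.12), while the lectin chaperone Calr fell from 753 to 473 CPM (-0.76 ± 0.06). At the step to mature OSNs 2 were called higher, Dnajb9 (0.89 ± 0.06) and Dnajc3 (0.80 ± 0.10), and 4 lower, Sec61b of the translocon among them (-1.02 ± 0.06). Of 9 sensors and regulators of eIF2α tested, 3 were called higher and 3 lower from INP to late immature OSNs, and 2 and 1 at the next step. With so few genes these counts are near the shares of all genes, 24.9% and 22.0% at the former step and 20.9% and 22.9% at the latter. Ppp1r15b, a subunit of the phosphatase that resets eIF2α, rose (0.66 ± 0.11) and then fell (-0.73 ± 0.10), and the sensor Atf6 rose at both steps (0.69 ± 0.13 and 0.96 ± 0.10).

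Of 8 relatives of the trafficking and feedback genes tested, 3 were called higher and 2 lower from INP to late immature OSNs, and 2 and 3 at the step to mature OSNs, counts again near the shares of all genes at these steps. Of the 10 genes on this list, 1 had been among the genes used for clustering. Adcy3, the adenylyl cyclase of odor signaling that takes part in the feedback, rose from 46.0 to 873 CPM at the last step (4.41 ± 0.15). It is among the leading genes of the mature cluster, so its rise into that cluster is no independent result. Ric8b, which helps the olfactory G protein, rose from 88.3 to 675 CPM (3.09 ± 0.12). Kdm1a, the lysine demethylase whose loss accompanies a settled OR choice, was highest in INP at 499 CPM and fell to 278 CPM in late immature OSNs (-0.93 ± 0.06). Other genes of the Reep family went against Reep1 at the last step, with Reep5 falling from 49.6 to 1.25 CPM (-5.06 ± 0.25) and Reep4 from 7.89 to 1.60 CPM (-2.21 ± 0.29).

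The genes whose pattern over the 16 sums of library and stage was most like that of each of the 10 were found by the Pearson r of log2(CPM + 1) among 8732 genes, as a description. Acsl6 and Snap25 came closest to Rtp1 (r of 0.99 each), and Snap25 and Nxph3 to Rtp2 (0.99 or more). Acyp2 was nearest to Reep1 (0.98), Saraf to Atf5 (0.99) and Agbl3 to Ddit3 (0.99). Zdhhc12 was nearest to Trib3 (0.97), Btbd3 to Eif2ak3 (0.93), Sae1 to Hspa5 (0.93), Nol12 to Xbp1 (0.92) and Ppp1r12c to Atf4 (0.91). Among the 10 genes themselves Ddit3 tracked Rtp2 (0.94), and Rtp1 and Xbp1 were the pair with the lowest value (-0.40).

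In mature OSNs the swap of HP1β for HP1α was accompanied by no call in any of the 10 genes. Rtp1 was at 321 and 391 CPM in the swap and 375 and 370 CPM in the control libraries. Atf5 was at 2435 and 1788 CPM in swap and 2884 and 1906 CPM in control. Ddit3 was at 217 and 143 against 221 and 142 CPM. The libraries of the 2 genotypes overlapped for each of the 10 genes in these gated cells. In the mature cluster they were apart for 1 gene, Xbp1, at 26.7 and 22.9 CPM in swap and 36.7 and 28.7 CPM in control. In INP 1 gene was higher and 1 lower in both swap libraries, and in GBC 1 was higher and 3 lower. The share of all genes that were apart at these stages was not counted. Being apart corresponds to an exact permutation p of 0.333, so neither outcome is read as a result. The log2 fold changes ran from -0.25 (Atf4, SE 0.33) to 0.32 (Trib3, SE 0.62), with a median of -0.08 against 0.00 over all genes. edgeR called 0 of the 13636 genes (0%), 334 genes had an unadjusted p below 0.05, and none of these was of the 10. Cbx1, which the swap removes, was itself not called (log2 fold change -5.53 ± 0.42, adjusted p = 0.161). Nor was Cbx5 (1.515 ± 0.39, adjusted p = 0.913). The absence of a call in this fit therefore does not exclude a large change. DESeq2 called 209 genes, again none of the 10. With SEs of 0.20 to 0.62 on the log2 scale, the differences of the 10 genes could not have been told from the spread between libraries. An exact permutation test of 2 against 2 libraries cannot give a p below 0.333.

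For several of the genes the libraries numbered 1 and 2 differed in the same direction in both genotypes. Trib3 was 2.19 times higher in control replicate 1 than in control replicate 2 and 2.31 times higher in swap replicate 1 than in swap replicate 2. The same ratios were 1.56 and 1.52 for Ddit3, 1.51 and 1.36 for Atf5 and 1.43 and 1.34 for Atf4. Reep1 ran the other way, at 0.70 and 0.63, as did Eif2ak3, at 0.62 and 0.77. Trib3, Ddit3, Atf5 and Atf4 were thus higher, and Reep1 and Eif2ak3 lower, in the libraries numbered 1. In the labels the library names of replicates 1 share a prefix and so do those of replicates 2, with no statement of what it means. Within a number the log2 ratio of swap to control was -0.03 and 0.02 for Ddit3, -0.24 and -0.09 for Atf5, -0.22 and 0.08 for Rtp1 and 0.41 and 0.33 for Trib3. The summed levels of sustentacular markers in the same cells were 2148 and 3477 CPM in swap and 259 and 4124 CPM in control. Late immature OSN markers were higher in the libraries numbered 1, at 1360 and 753 CPM in swap and 1208 and 804 CPM in control. Mature OSN markers were lower there, at 6078 and 7905 CPM in swap and 6178 and 8718 CPM in control. Of the gated cells, 31.7% and 59.7% in swap and 49.1% and 65.5% in control lay in the mature cluster. The part of these differences in the values was not tested.

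**Figure D3:**
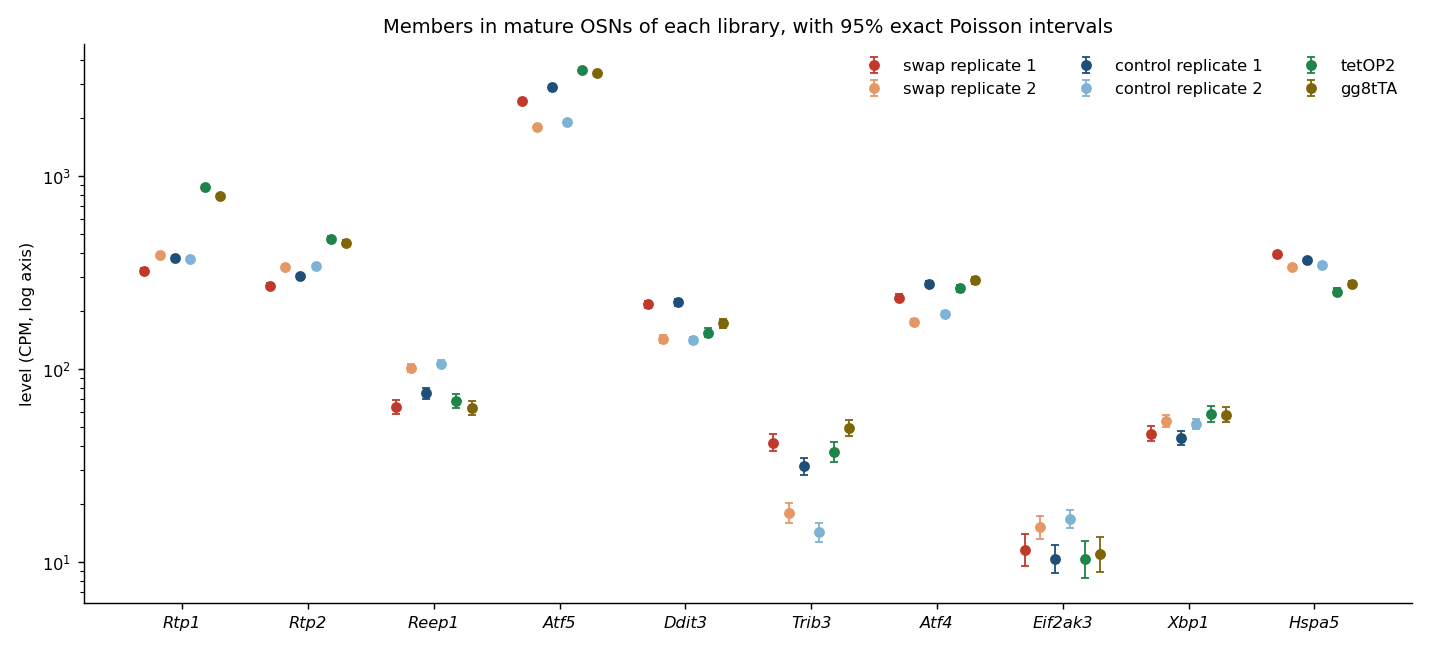
Level in CPM (log axis) of the 10 genes in mature OSNs of each of the 6 libraries, with 95% exact Poisson intervals that cover counting error only. Swap and control points overlap for every gene, and for Trib3, Ddit3 and Atf5 the points of replicate 1 lie above those of replicate 2 in both genotypes; the tetOP2 and gg8tTA libraries belong to another experiment and are to be compared only with each other.

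Late immature OSNs gave a like picture. edgeR called 5 of 11981 genes (0.0417%) between swap and control, and none of the 10, whose lowest unadjusted p was 0.280. Ddit3 was at 259 and 193 CPM in swap against 198 and 160 CPM in control, a log2 fold change of 0.31 ± 0.26. Trib3 was at 79.7 and 45.8 against 56.8 and 32.9 CPM, a log2 fold change of 0.44 ± 0.39. The genotypes overlapped for all 10 genes. Within a replicate number the swap library was higher in both pairs for both genes, by 0.39 and 0.27 on the log2 scale for Ddit3 and by 0.49 and 0.48 for Trib3. It was also higher in both for Hspa5 (0.04 and 0.07), and lower in both for Atf5 (-0.03 and -0.08) and Xbp1 (-0.16 and -0.02). The replicate numbers are not said to pair the libraries, and the share of all genes with such a shared sign was not counted, so no result is read from it. None of the 4 pathway lists had a gene called between genotypes in mature or late immature OSNs.

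Mature OSNs with more OR transcripts relative to their other transcripts had more Rtp1, by a small amount, and general markers of mature OSNs were higher with it. No such difference was detected when cells were ranked by raw OR UMIs, as given below. The gated cells of each library were ranked by OR UMIs per 10000 UMIs of other genes and divided into quartiles, whose median OR count per cell was 4 to 11 UMIs in the lowest and 140.5 to 200 UMIs in the highest quartile of the swap and control libraries. OR genes were left out of the sums, and the library was a block. Rtp1 was at 271 and 326 CPM in the lowest and 397 and 465 CPM in the highest quartile of the swap libraries, and at 352 and 322 against 417 and 425 CPM in the controls. It was higher in the highest quartile in each library, with a log2 fold change of 0.47 ± 0.06 (adjusted p = 6.06e-05), below the 0.58 needed for a call. Rtp2 (0.36), Ddit3 (0.32), Atf5 (0.30), Trib3 (0.40) and Reep1 (0.24) also had adjusted p below the threshold of 0.05, with changes under that size. In all 6 of the 10 genes were higher at that p and any size, where 15.2% of the 11356 genes tested were higher and 15.8% lower. Rtp1, Rtp2, Ddit3 and Atf5 were higher in 4 of 4 libraries. Reep1 was higher in 3 of 4, with -0.15 in control replicate 1, and Trib3 in 3 of 4, with -0.19 in swap replicate 1. In tetOP2 and gg8tTA, which were not in the fit, Trib3 was lower (-0.23 and -0.67) and Reep1 higher (0.29 and 0.27). Among genes of mature OSNs outside the 10, Adcy3 was higher by 0.45 ± 0.06 (adjusted p = 9.75e-05) and Omp, which set the gate, by 0.34 ± 0.05 (adjusted p = 1.46e-04).

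Xbp1 went the other way and was the only one of the 10 called. It was at 65.6 and 86.2 CPM in the lowest and 41.3 and 30.3 CPM in the highest quartile of the swap libraries, and at 60.3 and 69.4 against 35.7 and 35.8 CPM in the controls. Each library fell, by 0.95 on the log2 scale in the fit (SE 0.15, adjusted p = 0.000179), where 12.2% of all genes tested were called lower and 0.757% higher. Hspa5 (-0.05), Eif2ak3 (-0.05) and Atf4 (0.07) differed by less than their SE or little more (0.05, 0.16 and 0.06). Of the pathway lists, none had a gene called higher. Of those called lower, Nupr1 (-3.28 ± 0.37), Atf3 (-1.86 ± 0.27), P4hb (-1.19 ± 0.18) and Reep5 (-2.88 ± 0.27) had the largest changes.

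Clusters led by mature OSN markers are here those that scored highest for the mature OSN list, with no marker of a type outside the lineage among their leading genes. In the lowest quartile they were the mature cluster (527 cells), the unnamed Ctxn3 cluster (366) and an unnamed cluster led by Amelx, Ambn and Gng13 (16). The lowest quartile held more cells from outside these clusters, at 6.93% to 17.8% of its cells against 1.83% to 8.42% of the highest quartile. Of these cells 27 in the lowest and 19 in the highest quartile lay in a late immature OSN cluster, and most of the others in the lowest quartile lay in clusters led by sustentacular genes. The summed level of the 5 sustentacular markers, each found in the lowest quartile of every library, was 809 to 7232 CPM in the lowest and 62.4 to 964 CPM in the highest quartile. Neutrophil markers summed to 19.3 to 3892 against 16.7 to 46.4 CPM, and fibroblast markers to 117 to 1253 against 18.5 to 36.6 CPM. With only the cells of clusters led by mature OSN markers, a choice made after seeing these values, 67 of 10331 genes were called and none of the 10. Among all gated cells 1467 of 11356 had been called. In the restricted edgeR fit 3 of the 10 and 1218 of all genes tested had an unadjusted p below 0.05. Xbp1 was then at 40.4 and 25.5 CPM in the lowest and 36.6 and 26.3 CPM in the highest quartile of the swap libraries, and at 46.3 and 31.9 against 34.8 and 28.8 CPM in the controls (log2 fold change -0.21 ± 0.10, adjusted p = 0.41). Rtp1 was the only one of the 10 with an adjusted p below the threshold (0.17 ± 0.04, adjusted p = 0.00193), and Adcy3 was then at 0.18 ± 0.03 (adjusted p = 2.05e-04) and Omp at 0.04 ± 0.02 (adjusted p = 0.505). How many of all genes passed that threshold at any size was not counted for this fit. Rtp1 was higher in the highest quartile in 4 of 4 libraries, by 0.15 to 0.25 on the log2 scale. It was likewise higher by 0.14 in tetOP2 and 0.10 in gg8tTA, which took no part in the fit. Trib3 was lower in that pair (-0.71 and -0.76) and higher in 3 of 4 swap and control libraries. When cells were ranked by raw OR UMIs, the change of Rtp1 had an adjusted p of 0.631 (log2 fold change 0.06) and that of Xbp1 was -0.03.

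The change from lowest to highest quartile was also compared between genotypes. edgeR called 0 of 11356 genes (0%) for this difference, with 543 genes at an unadjusted p below 0.05, and DESeq2 called 0 of 17609. Of the 10 genes 1 had such a p, Trib3, whose log2 ratio of highest to lowest quartile was -0.19 and 0.30 in the swap and 0.34 and 1.04 in the control libraries. Its difference was -0.60 ± 0.25 with an adjusted p of 0.962.

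**Figure D4:**
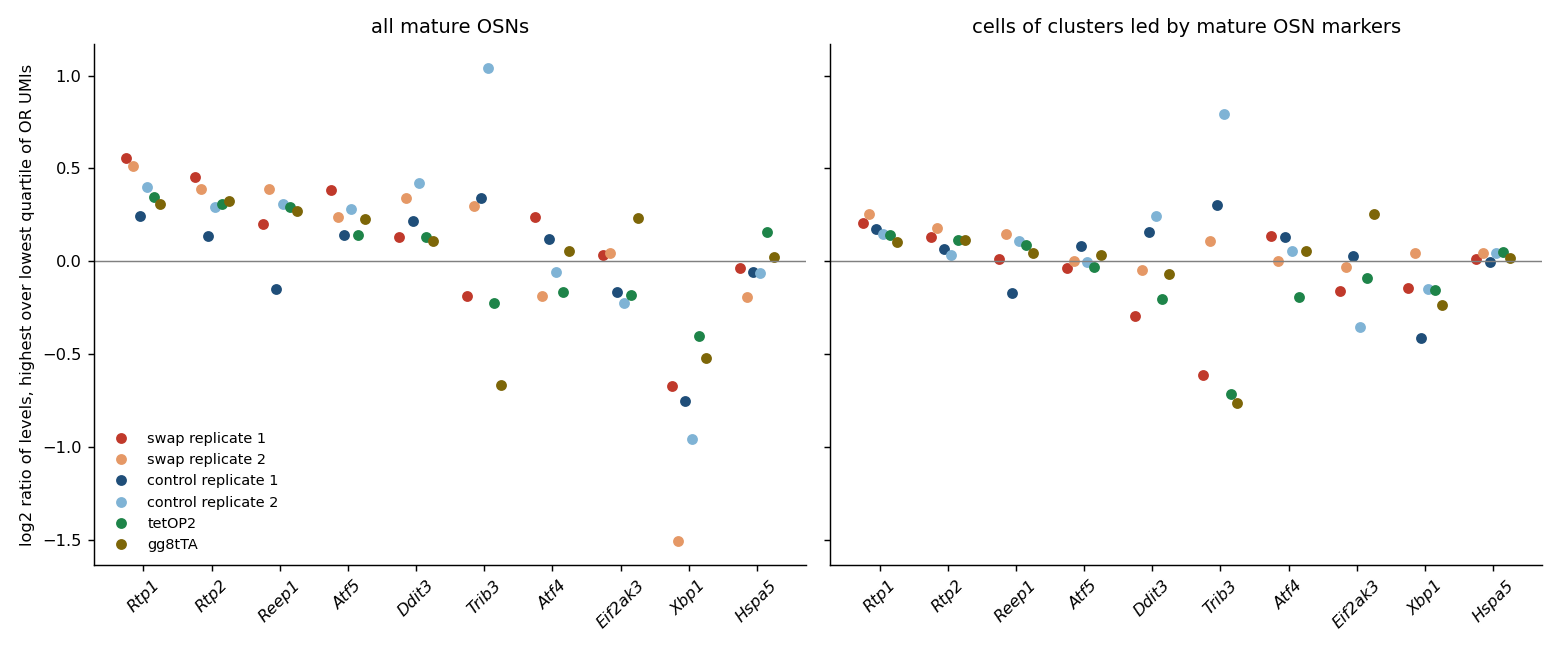
Log2 ratio of the level in the highest quartile of OR UMIs to that in the lowest quartile, with 1 point per library; the left panel holds all mature OSNs and the right panel those of clusters led by mature OSN markers. In the swap and control libraries these clusters take in the unnamed Ctxn3 cluster. Xbp1 is below 0 in each library on the left and at -0.41 to 0.05 in the swap and control libraries on the right, whereas Rtp1 stays above 0 in each library in both panels.

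The chosen OR of a cell was taken as the OR gene with the most UMIs, and levels by chosen OR did not repeat well between libraries. With at least 5 mature OSNs in each control library, 9 ORs could be compared. Over these, the Pearson r of mean levels in control replicate 1 against control replicate 2 was -0.26 to 0.35 for the 10 genes, with a median of 0.16. In the swap libraries 11 ORs gave -0.53 to 0.46. With at least 3 cells the medians were 0.11 over 40 ORs in control and 0.08 over 45 ORs in swap. These are descriptions of few cells per OR, and a dependence on the chosen OR was not detectable at this depth.

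In the mouse with the inducible Olfr17 allele, Trib3 and Ddit3 were lower than in the gg8tTA mouse and Rtp1 was higher. There is 1 library per genotype, so there is no test, and the intervals cover counting error only. Rtp1 had 7050 UMIs (879 CPM) in mature OSNs of tetOP2 and 6733 UMIs (783 CPM) in gg8tTA, a ratio of 1.12 (95% exact interval 1.09 to 1.16). Trib3 had 299 UMIs (37.3 CPM) against 428 UMIs (49.8 CPM), a ratio of 0.75 (0.64 to 0.87). Ddit3 had 1239 UMIs (154 CPM) against 1484 UMIs (173 CPM), a ratio of 0.90 (0.83 to 0.97). The order of the libraries was thus opposite for Rtp1 and for the 2 targets of ATF4. Atf4 (0.91) and Hspa5 (0.91) were on the same side with intervals below 1, and Atf5 was at 1.04. The intervals of Reep1 (1.09), Eif2ak3 (0.95) and Xbp1 (1.01) took in 1, and that of Rtp2 (1.05) began at it. None of the 10 passed a log2 ratio of 0.58 in size, which 8.20% of the 10823 genes with at least 50 UMIs did. In late immature OSNs Ddit3 was at 119 CPM in tetOP2 and 172 CPM in gg8tTA (0.69, 0.62 to 0.77) and Trib3 at 70.4 and 95.1 CPM (0.74, 0.64 to 0.85), while Rtp1 was at 250 and 251 CPM (1.00, 0.92 to 1.08). The difference was also seen in GBC, from few UMIs. There Ddit3 had 27 UMIs in tetOP2 and 50 in gg8tTA (0.47, 0.28 to 0.77), and Trib3 had 10 and 27 UMIs (0.32, 0.14 to 0.69). In INP the intervals of Ddit3 (0.84, 0.54 to 1.30) and of Rtp1 (0.92, 0.57 to 1.46) took in 1.

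The mature OSNs of the pair also differed in markers of OSN stages and of other cell types. Late immature OSN markers summed to 1409 CPM in tetOP2 and 1730 CPM in gg8tTA, and mature OSN markers to 12634 and 11999 CPM. The mature cluster held 83.7% of the gated cells in tetOP2 and 78.5% in gg8tTA. The part of these differences in the ratios was not tested. Respiratory markers summed to 588 CPM in tetOP2 and 2489 CPM in gg8tTA, fibroblast markers to 200 and 527 CPM, neutrophil markers to 510 and 85.1 CPM, and sustentacular markers to 854 and 505 CPM. In cells of clusters led by mature OSN markers the ratios were 1.12 for Rtp1, 0.75 for Trib3 and 0.89 for Ddit3. With a gate of at least 3 Omp UMIs the interval of Ddit3 took in 1 (0.95, 0.88 to 1.02).

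The same direction was seen among cells of the tetOP2 library alone. Of its 683 mature OSNs, 390 had Olfr17 as their chosen OR, against 1 of 688 in gg8tTA. In these 390 cells Ddit3 was at 139 CPM, and in the 277 cells with another OR at 179 CPM, next to 177 CPM in the 632 gg8tTA cells with a chosen OR. The ratio of the former was 0.78 (0.69 to 0.87). Trib3 was at 30.3, 48.2 and 50.2 CPM in these 3 sets of cells, a ratio of 0.63 (0.50 to 0.79) for Olfr17 cells over cells with another OR. The tetOP2 cells with another OR were therefore close to the gg8tTA cells for both genes. Rtp1 was at 921, 825 and 790 CPM (1.12, 1.06 to 1.17), and Atf4 at 245, 277 and 292 CPM (0.89, 0.81 to 0.97). These differences are of the same sign as those between the libraries. The same 390 cells enter both comparisons, so the shared sign is no separate result. The intervals cover counting error only, and how many of all genes had intervals that left out 1 was not counted. The other 6 genes had intervals that included 1. The median OR count was 100 UMIs in Olfr17 cells and 84 UMIs in the others.

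**Figure D5:**
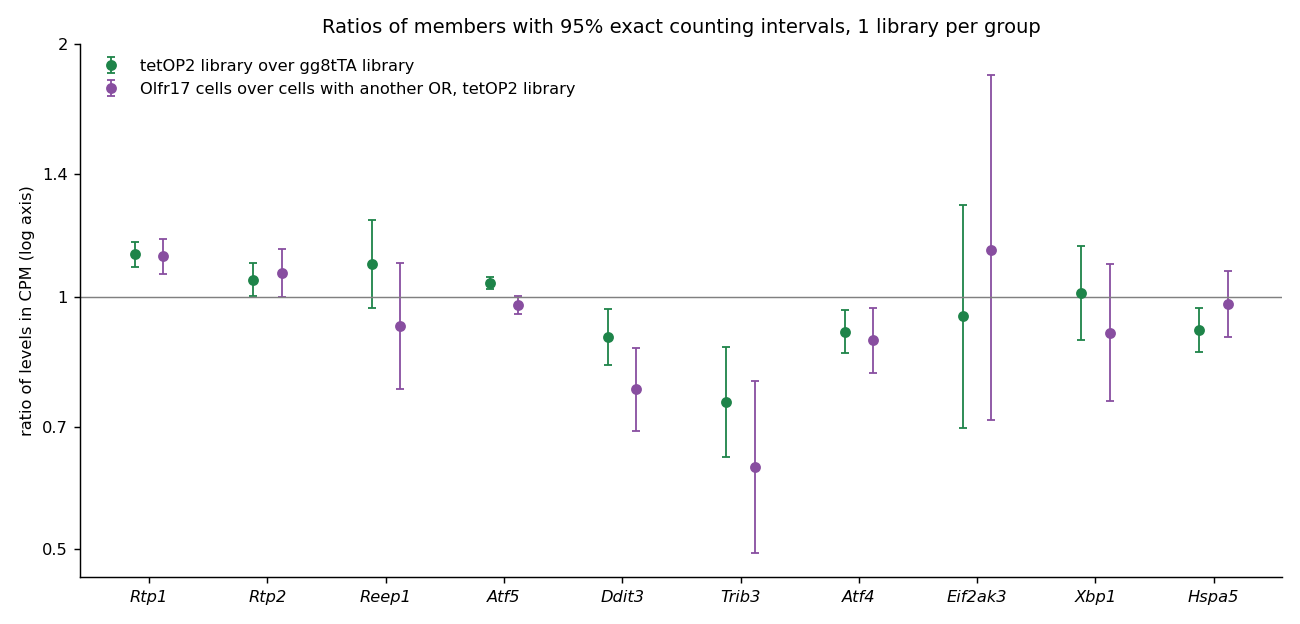
Ratios of levels in mature OSNs (log axis) with 95% exact counting intervals, for the tetOP2 over the gg8tTA library and, within the tetOP2 library, for cells with Olfr17 over cells with another OR. Trib3 and Ddit3 lie below 1 and Rtp1 lies above 1 in both comparisons, which share the Olfr17 cells and are not independent.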

How the data were processed

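The authors deposited UMI counts per gene and cell barcode, made with Cell Ranger with introns included and not normalized (build mm10 per the labels; the headers of the swap and control matrices give software version 3.1.0). Cells below 1000 UMIs or 500 genes were dropped, and doublets were scored against simulated pairs and removed at 0.8% per 1000 cells. Clustering used 2000 variable genes without OR genes and the 10 genes described, 30 principal components, 15 neighbours and Leiden resolution 1.5 (scanpy 1.11.5), and clusters were named by marker lists. UMIs were summed per library and stage, given as CPM (per 1000000 UMIs), and tested with edgeR 4.0.16 (quasi-likelihood test, TMM, its filter on low counts). A call needed an adjusted p (Benjamini-Hochberg, over all genes tested) below 0.05 and a log2 fold change larger than 0.58 in either direction. Alternatives were DESeq2 1.42.0, other scaling, filters, gates and libraries left out. The fits were tested on simulated counts. The step from INP to late immature OSNs was added because no early immature cluster could be named, and the planned steps through that stage were not run.

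The 10 genes and the pathway lists were chosen with earlier results of these data known. Named genes are the 10 in every comparison, the 3 genes most like each, of which the nearest are given, and of each list the called genes with the largest fold changes at 10 CPM or more. A part of the genotype labels is not reported here. Nothing in the labels says whether libraries come from separate animals, so p-values measure the spread between libraries.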

Additional observations from a re-analysis of the deposited data

How the results depend on the processing

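No call of the 10 genes reversed. Their calls were the same in 110 of 110 values under the alternatives for late immature to mature OSNs, 120 of 120 for swap against control in mature and 100 of 100 in late immature OSNs, 130 of 130 for the difference between genotypes in the quartiles, 137 of 140 for the quartiles, 96 of 100 for INP to late immature OSNs and 90 of 100 for GBC to INP, where Rtp1 was called higher with all 6 libraries (0.61), DESeq2 (0.78) or without control replicate 1 (1.11), Trib3 was called lower with all 6 libraries (-1.28), and Xbp1 lost its call in 6 alternatives. Trib3 was called higher in the quartiles without swap replicate 1 (0.58).

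The number of genes called depended more on the setting. For swap against control in mature OSNs it was 0, but 68 in the mature cluster, 209 with DESeq2 and 0 to 328 with 1 library left out, most of them without control replicate 2 (328) or control replicate 1 (222). In late immature OSNs it was 5, but 75 with DESeq2, 0 with a gate of at least 10 Gap43 UMIs, 65 with no filter and 124 to 328 with 1 library left out (328 without swap replicate 1). A lone library left in a group is assumed to vary like the other group. For the quartiles it was 1467, but 67 with only cells of clusters led by mature OSN markers and 26 with raw OR UMIs. For their difference between genotypes it was 0, but 5 with those cells, 2 with no filter and 0 to 11 with 1 library left out (11 without control replicate 2). For tetOP2 against gg8tTA 888 genes passed the fold, and 1346 with a gate of at least 3 Omp UMIs. The causes were not tested.

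The replicate numbers are not said to pair the libraries. With 2 pairs, the correlation of same-numbered deviations was 0.41 over 8432 genes and 0.60 over 8207 without OR genes. With the replicate block 0 genes were called in mature and 40 in late immature OSNs, none of the 10. The comparison by chosen OR could not be made at 10 cells per OR.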

Other observations

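The ratio of Ddit3 to Trib3 differed along the course and between cell types, as values with no test. Trib3 fell from 53.8 ± 19.8 to 20.7 ± 7.80 CPM (SD, n = 4) between late immature and mature OSNs while Ddit3 stood at 202 ± 41.2 and 179 ± 34.7 CPM. In gg8tTA and tetOP2 the same step took Trib3 from 95.1 to 46.3 and from 70.4 to 31.3 CPM, and Ddit3 from 172 to 176 and from 119 to 154 CPM. Eif2ak3 was highest in B cells, at 33 ± 8.4 CPM, and Atf4 in erythroid cells, at 538 ± 132 CPM. Olfr17 was the chosen OR of 0 and 2 mature OSNs in the swap and of 4 and 6 in the control libraries, against 390 in tetOP2.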
